A study of Mus musculus with 6 samples.

Results

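The genes described here encode the proteases that cut the extracellular matrix and cell-surface proteins, with their inhibitors: matrix metalloproteinases (Mmp genes), the membrane-anchored ADAM proteases, the secreted ADAMTS proteases, the tissue inhibitors of metalloproteinases (Timp genes) and the plasminogen activator system (Plat, Plau and Plaur). They were taken from the deposited table by name, as protein-coding rows whose symbol begins with Mmp, Timp, Adam or Adamts and a number, or is Plau, Plat or Plaur. The rule found 56 genes of 25416 in the table: 16 MMPs, 20 ADAMs, 14 ADAMTSs, 3 TIMPs and the 3 plasminogen activator genes. In the GENCODE M21 annotation 81 protein-coding genes carry such a name, and the other 25 were not analysed here.

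Both groups are cultures of AML12, an immortal line of hepatocytes from a mouse with a transgene for human TGF alpha, a growth factor that ADAM proteases release from the cell surface, and both were grown in medium with serum, insulin, transferrin and selenium. The siSetdb1 group (3 samples) was transfected with a small interfering RNA against Setdb1, the gene of a histone H3 lysine 9 methyltransferase that represses transcription, and the siNC group (3 samples) received scrambled RNA. The amount of this RNA is given as 50 nm, as written, for both groups. RNA was taken after 72 h, selected by its poly(A) tail and sequenced as single-end reads. The study asks what lowering Setdb1 does to gene expression in this line. The labels do not tell whether the 3 samples of each group are independent cultures, and the p-values therefore reflect sample-to-sample spread that may be technical only.

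Most of these proteases are made as inactive zymogens, and a second protease or the cell's own convertases must remove a prodomain before they cut. MMPs digest collagens, laminins and other matrix proteins. Many ADAMs release the outer parts of membrane proteins, among them the precursors of epidermal growth factor receptor ligands, and the plasminogen activators turn plasminogen into plasmin, a broad protease. TIMPs block MMPs and several ADAMs and ADAMTSs by sitting in the active site. In the liver these genes are best known from scar formation and its removal, from regeneration after loss of tissue, and from tumour invasion.

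Values are given in FPKM, reads scaled to exon length and to the reads of the library, which allows levels of different genes to be set side by side. The libraries held 16790582 to 17835060 reads, with 19731 to 20544 genes above 0 in each. Setdb1 itself had 4.29, 4.21 and 3.29 FPKM in siSetdb1 against 8.41, 8.54 and 9.43 FPKM in siNC (log2 fold change -0.995, SE 0.10, limma adjusted p = 0.00183). Fold changes here are of FPKM + 1, which makes changes of low genes look smaller. For Setdb1, limma-voom on read counts recovered from the FPKM values gave -1.17. In a principal component analysis 1 library, siNC replicate 1, lay away from both others of its group, with scores of 26.7 against 11.7 and 10.8 on component 1, and it is left out in turn where a result rests on it. Of 7 hepatocyte markers all were in the table, and their summed level was 3373 to 3489 FPKM in siSetdb1 and 2822 to 3236 FPKM in siNC. Nearly all of that sum came from the keratin genes Krt8 and Krt18. Krt18 rose (log2 fold change 0.30, limma adjusted p = 0.0364), Ttr fell (-1.91, 0.0247), and the other 5, among them Alb with 1.45 to 4.501 FPKM in siSetdb1 and 4.05 to 14.3 FPKM in siNC, did not pass. The 6 of 10 markers of stellate cells or fibroblasts in the table summed to 0.955 to 1.36 FPKM in siSetdb1 and 0.659 to 0.702 FPKM in siNC, none of them reaching 1 FPKM in any library. For 5 of 6 markers of macrophages or other leukocytes the sum was 2.39 to 3.17 FPKM in siSetdb1 and 4.76 to 6.64 FPKM in siNC, nearly all of it Cd68, which fell (log2 fold change -0.84, limma adjusted p = 0.0120), with Ptprc at or below 0.00960 FPKM. All 5 endothelial markers together had 0.118 to 0.193 FPKM in siSetdb1 and 0.0553 to 0.122 FPKM in siNC, and 4 of 5 biliary markers had 1604 to 1784 FPKM in siSetdb1 and 1611 to 1792 FPKM in siNC, most of it from Krt19, which did not pass. Of the other 3 biliary markers Sox9 and Krt7 rose (log2 fold changes 0.78 and 0.50, limma adjusted p = 0.00680 and 0.00827) and Spp1 fell (-0.92, 0.00689). The part of other cell types in the results below was not tested. In such bulk samples fewer cells of a type and less RNA per cell cannot be told apart.

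Of the 56 genes, 19 had at least 0.5 FPKM in 3 or more libraries and were tested, and 37 lay below this filter. Among the 19 tested genes 4 rose in siSetdb1, Adam8, Adam12, Plat and Plaur, and none fell, as judged by limma on log2(FPKM + 1) with an adjusted p under 0.05. The same test called 15.1% of all 12846 genes tested, 6.87% as rising and 8.27% as falling. With the unadjusted limma value under 0.05 as the criterion 7 of the 19 were higher and 1, Adamts1, was lower, beside 13.9% and 18.3% of all genes tested. On recovered reads limma-voom called 6 as rising and 0 as falling, beside 8.1% and 9.82% of 12837 genes. Their median log2 fold change was 0.08, beside -0.02 for all genes tested. By class, 2 of 7 tested ADAMs and 2 of 3 plasminogen activator genes rose, and 0 of 5 MMPs, 0 of 2 ADAMTSs and 0 of 2 TIMPs passed. The 3 siSetdb1 libraries lay above the 3 siNC libraries without overlap for 8 of the 19 genes and below them for none, where 17.6% and 21.6% of all genes tested did so. This set of genes was chosen with earlier results of these data known, so its counts are a description.

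**Figure D1:**
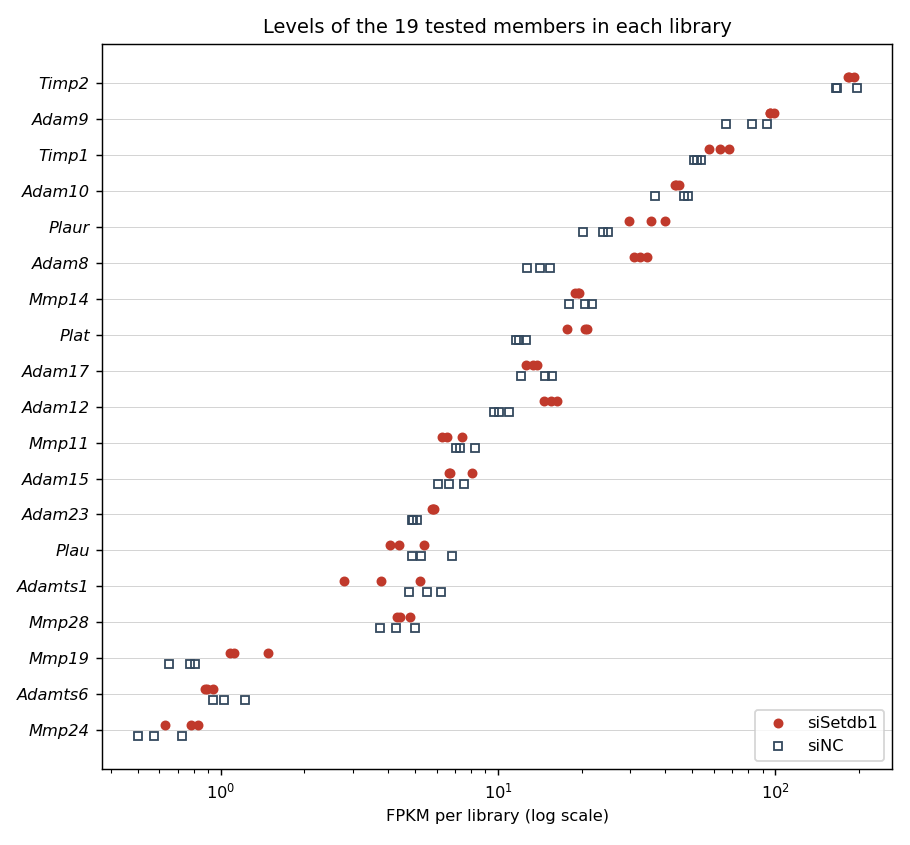
FPKM of the 19 tested genes in each library on a log axis, ordered by mean level, with filled circles for siSetdb1 and open squares for siNC. Timp2 has the highest level, at 166 to 196 FPKM, and Adam8, Adam12, Plat and Plaur show siSetdb1 points to the right of all siNC points. So do Adam9, Adam23, Timp1 and Mmp19, which did not pass the test.

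The levels spanned more than 2 orders of magnitude. Among the 56 genes Timp2 was the most abundant transcript in every library, at 183, 185 and 192 FPKM in siSetdb1 against 196, 167 and 166 FPKM in siNC. It was followed by Adam9, Timp1 and Adam10, whose ranges were 95.6 to 98.9, 57.5 to 68.1 and 43.4 to 44.9 FPKM in siSetdb1 and 66.3 to 93.6, 51.0 to 53.8 and 36.7 to 48.3 FPKM in siNC. At the lower end stood Mmp19, Adamts6 and Mmp24, each near 1 FPKM or below. In every class the same 1 gene gave the largest part of the summed level in every library. Adam9 made up 44.5% to 45.6% of the ADAM sum in siSetdb1 and 43.3% to 48.2% in siNC, Mmp14 made up 57.5% to 59.3% and 57.3% to 59.9% of the MMP sum, and Timp2 73.1% to 76.0% and 76.2% to 78.5% of the TIMP sum. For Adamts1 it was 62.7% to 77.0% of the ADAMTS sum in siSetdb1 and 74.5% to 75.7% in siNC. Plaur made up 54.3% to 61.6% of the plasminogen activator sum in siSetdb1 and 55.2% to 57.1% in siNC.

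Adam8 had the largest change of the tested genes. It encodes a membrane protease first known from leukocytes that activates itself by cutting off its own prodomain, and it lies on the minus strand of chromosome 7 at positions 139978932 to 139992562 of mm10 (ENSMUSG00000025473). Its values were 31.0, 34.6 and 32.4 FPKM in siSetdb1 against 15.4, 12.7 and 14.1 FPKM in siNC. Every siSetdb1 library was above every siNC library, and the means of 32.7 ± 1.8 and 14.1 ± 1.4 FPKM (SD, n = 3 each) differ 2.32-fold. The log2 fold change was 1.16 (SE 0.09, limma adjusted p = 0.000927), the only one among the 19 that reached 1 in size, and 1024 to 2738 reads per library stood behind the values. Of the exon bases of Adam8, 46 (0.992%) are shared with Gm16201 on the opposite strand, and the labels describe no strand-specific preparation. The RefSeq promoter window (GRCm38.p6, chr7:139992513-139992812, minus strand, 250 bases before the start site and 50 after it) is shown because this gene moved most. Its capitals mark the reverse complement of the GC box GGGCGG, 35 bases before the start.

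Adam8 promoter: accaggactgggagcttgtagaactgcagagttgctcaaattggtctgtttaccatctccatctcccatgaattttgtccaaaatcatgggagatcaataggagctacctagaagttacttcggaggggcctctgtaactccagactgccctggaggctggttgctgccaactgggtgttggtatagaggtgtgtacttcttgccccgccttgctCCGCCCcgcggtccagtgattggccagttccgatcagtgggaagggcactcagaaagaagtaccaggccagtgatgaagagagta

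Adam12, the second ADAM that rose, encodes a metalloprotease made in a membrane-bound and a secreted form, known from muscle, placenta and activated stellate cells. It lies on the same chromosome as Adam8 (minus strand, 133883199 to 134232146, ENSMUSG00000054555). The siSetdb1 libraries held 15.5, 16.3 and 14.6 FPKM and the siNC libraries 9.64, 10.96 and 10.1 FPKM. The groups did not overlap. With means of 15.5 ± 0.8 and 10.2 ± 0.7 FPKM the ratio was 1.51, and the log2 fold change was 0.55 (SE 0.08, limma adjusted p = 0.00514).

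The other ADAMs above the filter did not pass. Adam9, a widely expressed membrane protease, had 98.9, 95.8 and 95.6 FPKM in siSetdb1 against 66.3, 82.3 and 93.6 FPKM in siNC (log2 fold change 0.27, 95% interval 0.00 to 0.55 with the lower bound just under 0, limma adjusted p = 0.16). All siSetdb1 values of Adam9 lay above all siNC values. The siNC values spread widely with replicate 1 lowest, and without that library the log2 fold change was 0.14. Adam10, the main sheddase of Notch receptors and many other proteins, had 44.9, 43.4 and 43.9 FPKM in siSetdb1 against 36.7, 46.7 and 48.3 FPKM in siNC. Here the siSetdb1 values lay inside the siNC range, and the 95% interval of the log2 fold change was -0.23 to 0.26. Only siNC replicate 1 lay below them, and without that library the log2 fold change was -0.10 (limma adjusted p = 0.222). Adam17, which releases TNF and TGF alpha from the cell surface, had 13.9, 12.6 and 13.4 FPKM in siSetdb1 against 12.1, 14.7 and 15.6 FPKM in siNC, again inside the siNC range (95% interval -0.31 to 0.15). This overlap too came from siNC replicate 1 alone. Without that library the log2 fold change of Adam17 was -0.18 (limma adjusted p = 0.103). Adam15 had 6.65 to 8.05 FPKM in siSetdb1 and 6.06 to 7.54 FPKM in siNC. Adam23, which lacks the zinc-binding residues of an active protease and serves as a receptor in neurons, had 5.84, 5.86 and 5.79 FPKM in siSetdb1 against 4.93, 5.08 and 4.90 FPKM in siNC, without overlap but short of the threshold (log2 fold change 0.19, limma adjusted p = 0.0805). Its adjusted p was 0.0495 with limma-voom on recovered reads and 0.0504 to 0.499 in the other alternatives, and with GC and length trends removed the log2 fold change was 0.08. Summed over all 20 ADAM genes, the level was 217, 216 and 214 FPKM in siSetdb1 and 153, 179 and 194 FPKM in siNC.

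In the plasminogen activator system an activator and a receptor rose. Plat encodes tissue plasminogen activator (ENSMUSG00000031538, chromosome 8, 22757727 to 22782844, plus strand). It had 20.9, 17.7 and 20.5 FPKM in siSetdb1 against 11.9, 11.6 and 12.6 FPKM in siNC. All siSetdb1 values exceeded all siNC values, with means of 19.7 ± 1.8 and 12.03 ± 0.5 FPKM, a ratio of 1.64 and a log2 fold change of 0.67 (SE 0.08, limma adjusted p = 0.00371).

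Plaur encodes the receptor that holds urokinase at the cell surface (ENSMUSG00000046223, chromosome 7, 24462484 to 24475968, plus strand). Its values were 29.8, 35.6 and 40.0 FPKM in siSetdb1 against 24.9, 20.3 and 23.8 FPKM in siNC. The groups did not overlap, although the spread within siSetdb1 was wide (35.1 ± 5.1 against 23.0 ± 2.4 FPKM, log2 fold change 0.58, SE 0.12, limma adjusted p = 0.0209). Of the genes that passed, Plaur was nearest to the threshold. The call was lost when siSetdb1 replicate 2 (0.0783), siSetdb1 replicate 3 (0.0581) or siNC replicate 2 (0.061) was left out, and with no filter on low values (0.0679). Plau, the gene of urokinase itself, did not pass, with 4.08, 5.42 and 4.38 FPKM in siSetdb1 against 6.79, 4.90 and 5.29 FPKM in siNC. Its groups overlapped (log2 fold change -0.24, 95% interval -0.54 to 0.06). Plaur is the only tested gene with a match to the AP-1 site TGAGTCA (searched on both strands, with TGACTCA as its reverse complement) in its RefSeq promoter window. This is 1 of the 13 tested genes that have a window, beside 5.2% of all 32851 windows. The Plaur window (GRCm38.p6, chr7:24462233-24462532, plus strand) is printed with the AP-1 match, which begins 69 bases before the start site, and 3 GC boxes in capitals.

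Plaur promoter: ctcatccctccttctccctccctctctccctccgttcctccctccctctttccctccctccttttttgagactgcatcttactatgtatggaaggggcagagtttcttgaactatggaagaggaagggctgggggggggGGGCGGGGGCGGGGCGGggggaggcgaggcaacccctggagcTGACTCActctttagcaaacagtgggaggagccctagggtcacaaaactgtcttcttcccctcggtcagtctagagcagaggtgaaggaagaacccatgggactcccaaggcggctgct

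**Figure D2:**
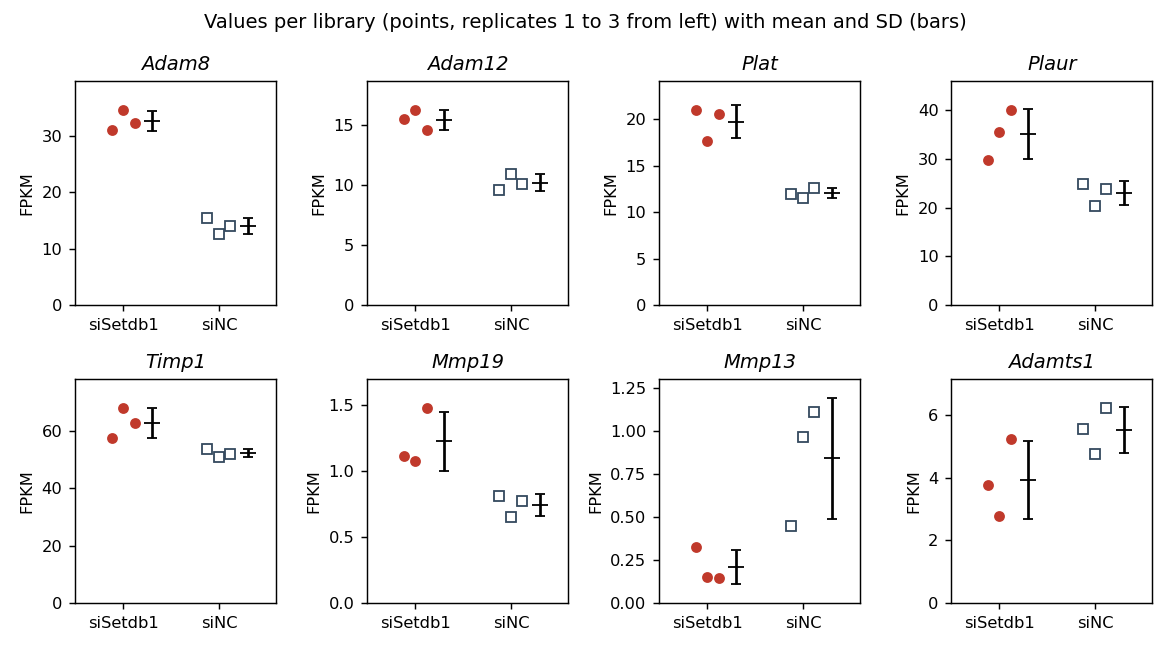
FPKM of 8 genes in each library, with siSetdb1 (filled circles) left of siNC (open squares) and bars for mean and SD, n = 3 each. In the top row the siSetdb1 values of Adam8, Adam12, Plat and Plaur lie above all siNC values, and in the bottom row Timp1 and Mmp19 do so without passing the test, while Mmp13 lies lower in siSetdb1 and Adamts1 overlaps.

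TIMP transcripts did not pass the test. Timp1, the inhibitor gene that rises in injured and fibrotic liver, had 57.5, 68.1 and 63.0 FPKM in siSetdb1 against 53.8, 51.0 and 52.0 FPKM in siNC. The groups were apart by a small margin, with a log2 fold change of 0.26 (95% interval 0.08 to 0.44), and the limma adjusted p = 0.0615 was the nearest above the threshold. Timp1 passed once GC and length trends were taken out, without the replicate block (adjusted p = 0.0064) and with it (0.0164), and with median-ratio scaling (0.0495). It did not pass in the other 11 alternatives, at 0.0531 to 0.197, where the replicate block gave 0.128. Timp2, which blocks MMP14 and, at low amounts, helps it to activate MMP2, had a 95% interval of -0.11 to 0.27. Its groups overlapped through siNC replicate 1, and without that library the log2 fold change was 0.16 (limma adjusted p = 0.0979). Timp3, the inhibitor that binds to the matrix, had 0, 1 and 1 reads in siSetdb1 and 0 reads in each siNC library. A count of 0 allows up to 3 reads in a library, for counting error only. Summed, the TIMP genes had 240.0, 253 and 255 FPKM in siSetdb1 and 250.2, 218 and 218 FPKM in siNC.

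No MMP above the filter passed. Mmp14, the membrane-type enzyme that activates the MMP2 zymogen and cuts fibrillar collagen, had 19.6, 18.9 and 19.4 FPKM in siSetdb1 against 21.9, 20.6 and 18.1 FPKM in siNC. The groups overlapped, and the 95% interval of the log2 fold change was -0.25 to 0.13. Mmp11, or stromelysin 3, had 7.40, 6.54 and 6.26 FPKM in siSetdb1 against 8.28, 7.26 and 7.06 FPKM in siNC (95% interval -0.35 to 0.06). Mmp28, or epilysin, an enzyme of epithelia, had 4.33 to 4.81 FPKM in siSetdb1 and 3.74 to 5.03 FPKM in siNC. Mmp24, a second membrane-type enzyme, had 0.630 to 0.825 FPKM in siSetdb1 and 0.503 to 0.725 FPKM in siNC. For both of these the groups overlapped.

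Mmp19, a secreted enzyme that cuts basement membrane proteins, had 1.11, 1.08 and 1.48 FPKM in siSetdb1 against 0.809, 0.651 and 0.774 FPKM in siNC. Its groups did not overlap, and the ratio of means was 1.64. The log2 fold change was 0.35 (limma adjusted p = 0.0644), on a log2(FPKM + 1) scale that makes changes of such low genes look smaller. With limma-voom on recovered reads it was 0.70 (adjusted p = 0.0356). Mmp19 also passed with GC and length trends removed (0.0353) but not in the other 12 alternatives (0.0517 to 0.175), the replicate block and each left-out library among them. Only 40 to 93 reads per library stood behind these values. Of the exon bases of Mmp19, 22.3% are shared with Tmem198b and 6.00% with Gm47093, both on the opposite strand. Reads from the shared bases may belong to either gene, since the labels describe no strand-specific preparation. Tmem198b had 1.98, 1.55 and 1.68 FPKM in siSetdb1 against 2.07, 1.47 and 1.64 FPKM in siNC.

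Mmp13, the main collagenase of rodents that cuts fibrillar collagen, lay below the filter because it reached 0.5 FPKM only in siNC replicates 2 and 3. It was singled out after its values were seen. It had 15, 7 and 7 reads in siSetdb1 against 20, 45 and 51 reads in siNC, or 0.325, 0.153 and 0.147 FPKM against 0.446, 0.967 and 1.11 FPKM. All siSetdb1 libraries were lower than all siNC libraries, with siNC replicate 1 close to siSetdb1 replicate 1. Mmp13 did not pass in limma on log2(FPKM + 1) with no filter (adjusted p = 0.105). A fit added after seeing the data, limma-voom on genes with at least 10 reads in 3 or more libraries, tested 23 of the 56 genes and called 5 as rising, the 4 above and Mmp19, beside 8.25% of all 13412 genes. It called 1 as falling, Mmp13, beside 10.1%. Since Mmp13 met that filter through siNC, where all 3 libraries reached 10 reads against 1 in siSetdb1, this call was bound up with the selection and supports nothing, and its values stand as a description.

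Mmp13 lies on chromosome 9 (7272514 to 7283331, plus strand) with 5 other MMP genes of the table, Mmp12, Mmp10, Mmp8, Mmp27 and Mmp7, within less than 1 Mb. These 5 neighbours together had 1, 2 and 1 reads in siSetdb1 and 7, 1 and 5 reads in siNC, so that differences between them were not detectable at this depth. A match to the AP-1 site TGAGTCA was found in the RefSeq windows of 4 of these 6 genes and of 6 of the 33 genes that have a window (36 windows), against 5.2% of all 32851 windows. No window of the 6 MMP genes on chromosome 9 held a GC box, which 35.7% of all windows held. Counted by gene, 12 of the 13 tested genes and 8 of the 20 genes below the filter that have a window held one. The share among windows of all tested genes was not determined. A match is a description of the letters and not a binding site. The AP-1 matches and up to 11 bases on each side are given 5′ to 3′ in the orientation of the gene, from GRCm38.p6, with the match in capitals.

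Mmp13 (chr9:7272468-7272496, plus strand): ccccaaagtggTGACTCAtcactatcatg
Mmp12 (chr9:7347319-7347347, plus strand): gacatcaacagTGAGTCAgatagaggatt
Mmp10 (chr9:7502268-7502296, plus strand): tagcacccatgTGAGTCAtgcttagtgac
Mmp7 (chr9:7692016-7692044, plus strand): aagtgtgcaaaTGAGTCAcctatttccac
Plaur (chr7:24462403-24462431, plus strand): acccctggagcTGACTCActctttagcaa
Adam1b (chr5:121503398-121503426, minus strand): gtggctcctgcTGAGTCAggtacagtcaa

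The match of Mmp13 begins 35 bases before the start site, that of Mmp12 44, those of Mmp10 and Mmp7 63, and that of Plaur 69 bases before it, while that of Adam1b begins at base 21 after it. Mmp13 and Plaur carry the reverse complement TGACTCA and the other 4 carry TGAGTCA. The windows of the 33 genes were also searched on both strands for the cyclic AMP response element TGACGTCA and the EGR site GCGTGGGCG, found in none of the 36 windows and in 1.79% and 0.612% of all windows, and for the ETS site CCGGAAG, found in 2 (Adam15 and Adam17) and in 8.86% of all windows.

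ADAMTS proteases were scarce. Adamts1, which cuts the proteoglycans versican and aggrecan, had 3.77, 2.77 and 5.25 FPKM in siSetdb1 against 5.55, 4.76 and 6.23 FPKM in siNC. The groups overlapped through siSetdb1 replicate 3, and the gene did not pass (log2 fold change -0.43, SE 0.18, limma adjusted p = 0.155). Without that library its log2 fold change was -0.61 with an adjusted p = 0.049. It also passed with the replicate block and trends removed (0.0474), and the other 12 alternatives gave 0.0667 to 0.363. Adamts6 had 0.877 to 0.939 FPKM in siSetdb1 and 0.936 to 1.22 FPKM in siNC. Adamts10 and Adamts15, below the filter, had 53 to 75 and 26 to 39 reads in siSetdb1 and 56 to 61 and 25 to 41 reads in siNC, and neither passed the fit on recovered reads.

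**Figure D3:**
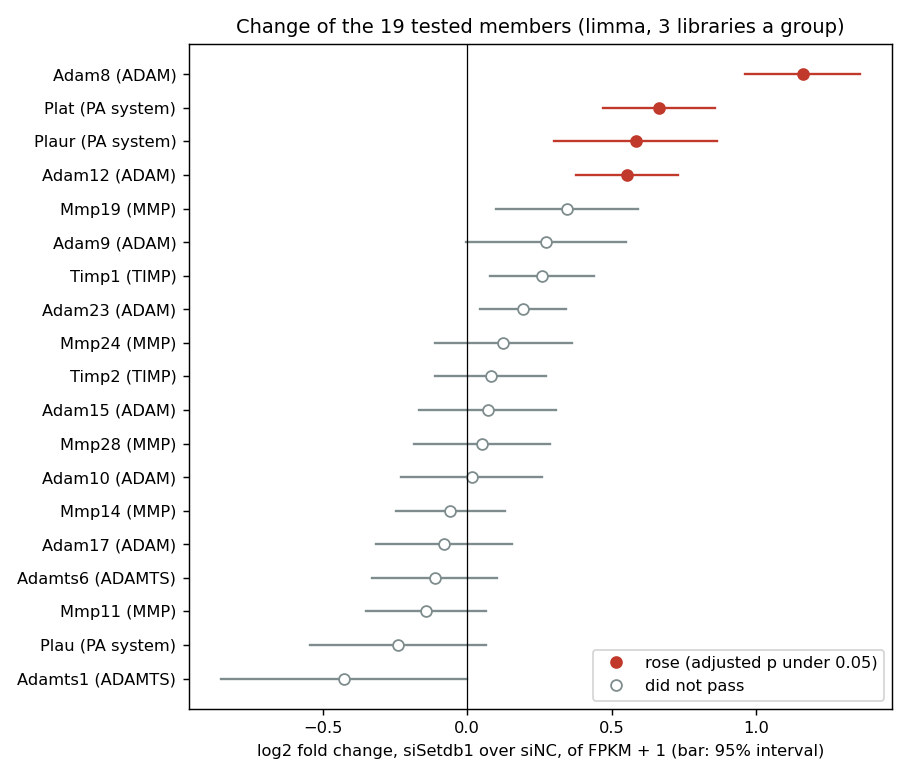
Log2 fold change of siSetdb1 over siNC with its 95% interval (limma on log2(FPKM + 1), n = 3 each) for the 19 tested genes, with filled red points for those that rose. Adam8, at 1.16, is the only gene past 1, and of the 15 genes that did not pass only Mmp19, Timp1, Adam23 and, barely, Adamts1 have intervals that leave out 0.

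Most of the 37 genes below the filter were close to silent in both groups. In 32 of them no library had over 10 reads, and 18 had at most 5 reads in all 6 libraries together. Leaving out Mmp13, the other 36 together held 168, 151 and 158 reads in siSetdb1 and 152, 137 and 204 reads in siNC. The ADAM genes known mainly from testis and sperm (Adam1a, Adam1b, Adam2, Adam3, Adam4, Adam5, Adam21, Adam30 and Adam32), a group chosen after the values were seen, summed to 18, 23 and 21 reads in siSetdb1 and 16, 14 and 27 reads in siNC, and the groups overlapped. Adam3, Adam5 and Adam32 lie beside Adam9 in a cluster on chromosome 8 (24677225 to 25016927). They had 2, 8 and 4 reads together in siSetdb1 and 3, 5 and 7 in siNC, whereas Adam9 had 6734 to 7029 and 4580 to 6613 reads. Adamts5 lies beside Adamts1 on chromosome 16 (85793827 to 85901828) and had 0 reads in siSetdb1 and 0, 1 and 2 in siNC. The gelatinase genes Mmp2 and Mmp9, which digest denatured collagen and basement membrane, had 4, 8 and 9 reads and 0 reads in siSetdb1, against 6, 2 and 3 reads and 0, 0 and 1 read in siNC. Adam33 had 6 to 14 reads in siSetdb1 and 7 to 26 in siNC, and Adam4 had 4 to 10 and 5 to 8. Adamts9 had 4 to 6 reads in siSetdb1 and 6 to 14 in siNC. The remaining genes, Mmp15, Mmp21, Mmp23, Adam11, Adam22, Adam28, Adamts2, Adamts4, Adamts7, Adamts12, Adamts13, Adamts14, Adamts16 and Adamts20, had at most 10 reads in any library.

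**Figure D4:**
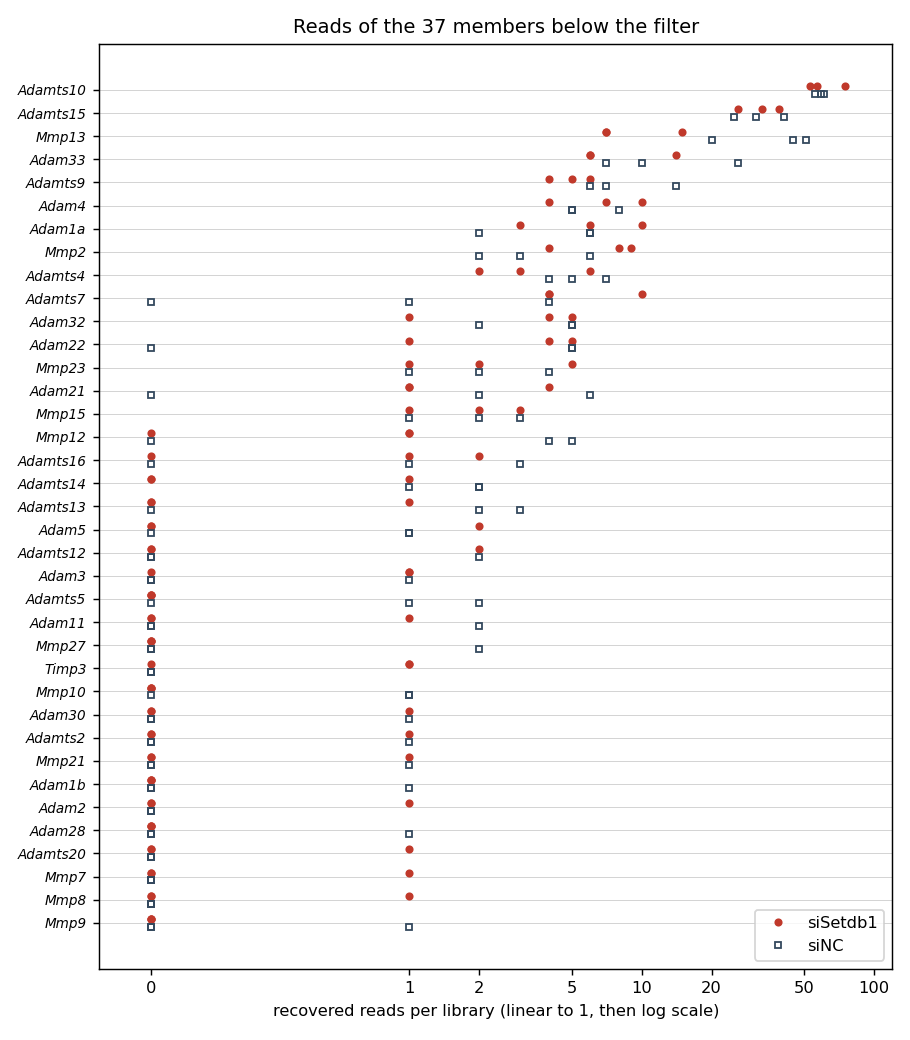
Reads per library, recovered from the FPKM values, of the 37 genes below the filter, ordered by their sum (axis linear to 1, then log), with filled circles for siSetdb1 and open squares for siNC. Mmp13 is the one gene with over 20 reads in some library and no overlap between groups, and most genes have under 10 reads.

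Genes that activate, inhibit or anchor these proteases were described from a list of 46 genes, of which 35 were in the table and 26 were tested. The 11 without a protein-coding row include Plg, the gene of plasminogen, and the inhibitor genes Reck and A2m, so nothing can be said of their levels. Of the 26 tested, 8 rose, 3 fell and 15 did not pass, where 6.87% of all genes tested rose and 8.27% fell. The list was drawn up with earlier results of these data known, so its counts are a description. The median log2 fold change was 0.13, beside -0.02 for all genes tested. The number that rose depended on single libraries. Leaving out siSetdb1 replicate 1, 2 or 3 gave 2, 1 and 4, leaving out siNC replicate 1 gave 10, and leaving out siNC replicate 2 or 3 gave 4 each. It was 4 with no filter and 4 with the replicate number as a block.

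Among partners at the cell surface, Itgav, the integrin alpha V subunit that binds vitronectin together with the urokinase receptor, rose to 40.7, 40.1 and 36.6 FPKM in siSetdb1, against 22.1, 24.0 and 25.96 FPKM in siNC (log2 fold change 0.68, SE 0.08, limma adjusted p = 0.00312). Cd44, a hyaluronan receptor that MMP14 cuts, had 33.0, 37.1 and 35.6 FPKM in siSetdb1 against 25.1, 24.7 and 27.9 FPKM in siNC (log2 fold change 0.43, limma adjusted p = 0.0124, and 0.0583 without siSetdb1 replicate 2). Anxa2, which binds tissue plasminogen activator and plasminogen, had 439.8, 430.5 and 453 FPKM against 369, 355 and 338 FPKM. Its log2 fold change was 0.32 (adjusted p = 0.0223), and the call was lost when any library except siNC replicate 1 was left out, at 0.0526 to 0.0911, and under the replicate block (0.0661). Plgrkt, a membrane receptor of plasminogen, fell to 10.9, 10.6 and 9.70 FPKM in siSetdb1, against 12.5, 12.3 and 13.5 FPKM in siNC (log2 fold change -0.27, limma adjusted p = 0.0497). Tspan14, a tetraspanin that guides ADAM10, had 9.28, 10.3 and 9.37 FPKM against 8.32, 7.503 and 7.67 FPKM (log2 fold change 0.27, limma adjusted p = 0.0485). Both of these calls were lost with no filter, under the replicate block, and when any library except siNC replicate 1 was left out, that of Plgrkt also with pseudocount 0.1 (0.0501) and median-ratio scaling (0.057), and that of Tspan14 with limma-voom (0.0523). Tspan5, Tspan15 and Tspan17, other tetraspanin genes of the list, did not pass (log2 fold changes -0.08, 0.19 and -0.02, limma adjusted p = 0.517, 0.145 and 0.855).

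Among inhibitors of the plasminogen activators, Serpine2, which blocks thrombin, urokinase and tissue plasminogen activator, fell to 10.8, 10.8 and 10.4 FPKM in siSetdb1, against 16.8, 15.9 and 14.7 FPKM in siNC, with no overlap (log2 fold change -0.52, SE 0.07, limma adjusted p = 0.0049).

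Tll1 and Bmp1 encode astacin-family enzymes that trim fibrillar procollagens. Tll1 had 4.01, 4.17 and 3.38 FPKM in siSetdb1 against 1.62, 2.39 and 2.33 FPKM in siNC (log2 fold change 0.65, limma adjusted p = 0.0154). Bmp1 had 16.5, 17.2 and 16.04 FPKM against 14.2, 11.9 and 12.04 FPKM (log2 fold change 0.37, limma adjusted p = 0.0274), and Pcolce2, which enhances both enzymes, had 4.73, 5.46 and 4.69 FPKM against 3.19, 3.44 and 3.56 FPKM (0.44, 0.0149). All 3 genes had groups that did not overlap, and all 3 calls were lost without siSetdb1 replicate 1 or 2, at adjusted p values of 0.0519 to 0.101. Bmp1 also lost its call without siSetdb1 replicate 3 or siNC replicate 2 or 3, with no filter and under the replicate block, and Tll1 with no filter. The related enhancer gene Pcolce did not pass, and Tll2 was not tested, with 1 read in all 6 libraries together. Mep1a, an astacin-family protease of the meprin kind, fell to 1.41, 0.984 and 1.48 FPKM in siSetdb1, against 2.40, 2.23 and 2.50 FPKM in siNC (log2 fold change -0.57, limma adjusted p = 0.0155). Of the convertases that remove prodomains, Pcsk7 had 7.82, 7.95 and 7.98 FPKM in siSetdb1 against 6.995, 5.83 and 5.79 FPKM in siNC (log2 fold change 0.31, limma adjusted p = 0.0449), a call lost with no filter, under the replicate block and without any 1 library other than siNC replicate 1, while Furin and Pcsk6 did not pass.

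**Figure D5:**
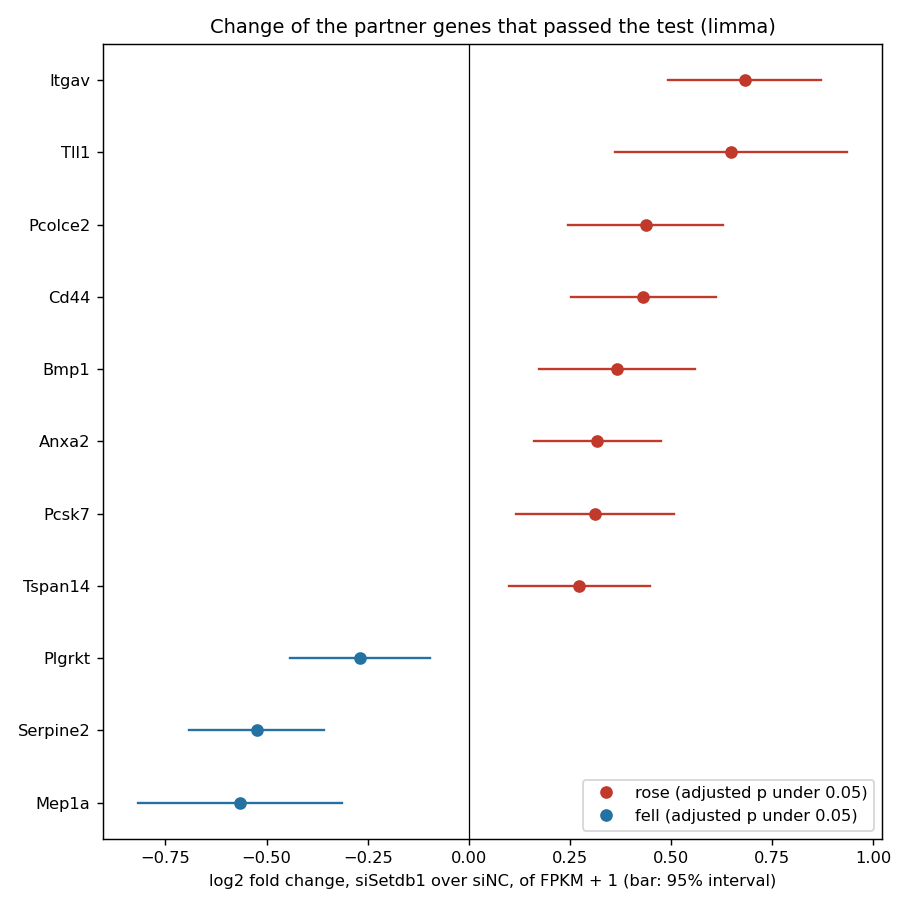
Log2 fold change of siSetdb1 over siNC with its 95% interval (limma on log2(FPKM + 1), n = 3 each) for the partner genes that passed the test, with red for the 8 that rose and blue for the 3 that fell. Itgav and Tll1 lie highest at 0.68 and 0.65, and Serpine2 and Mep1a lowest at -0.52 and -0.57. This scale makes changes of low genes such as Tll1 and Mep1a look smaller. With limma-voom on recovered reads the values were 0.70 for Itgav, 0.88 for Tll1, -0.57 for Serpine2 and -0.89 for Mep1a.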

How the data were processed

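RNA-seq of 6 AML12 samples, 3 transfected with siSetdb1 and 3 with scrambled RNA (siNC), was analysed from 1 deposited table. Per the submitters' processing notes, HISAT2 2.0.4, Bowtie2 2.2.5, RSEM 1.2.12, DESeq2 1.4.5 and the build mm10 were used, with no role given. The header names no unit. The deposited values are FPKM made by the authors, as found from the values: 98.7% to 98.8% of the values above 0 were whole reads within 0.01 once multiplied by GENCODE M21 exon length (GRCm38) and 1 total per sample. Those reads, rounded, are the read counts given in the text and entered only the alternatives with limma-voom or a variance trend on reads. Zero counts allow up to 3 reads, for counting error only.

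The filter, 0.5 FPKM reached in 3 libraries, kept 12846 genes and left out 12570. On log2(FPKM + 1), limma (version 3.58.1, R 4.3.3) was run with a trended, robust prior variance, two-sided, Benjamini-Hochberg adjusted over all genes tested, threshold 0.05. Adding 1 makes changes of genes at low FPKM look smaller. The script was tested on simulated data. No library was a copy of another: within groups chi-square over its degrees of freedom was 4.68 to 24.0. By rule the text names each gene that passed, the nearest to the threshold on each side, the most abundant of each class that did not pass, and partner genes that passed. Further genes were named after their values were seen. Members and lists were chosen with earlier results of these data known. Promoter windows are RefSeq's (GRCm38.p6) and matched 33 of the 56 genes by symbol. Alternatives were another pseudocount, no filter, median-ratio scaling, limma-voom, a variance trend on reads, removal of GC and length trends, a replicate block, and each library left out. One gene of the partner list is not reported here by name.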

Additional observations from a re-analysis of the deposited data

How the results depend on the processing

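Adam8, Adam12 and Plat rose under each of the 14 alternative settings, and the number of these protease and inhibitor genes that rose was 3 to 6. The number that fell, 0, became 1 without siSetdb1 replicate 3 and 1 with the replicate block and trends removed (Adamts1), and 1 with limma-voom at 10 reads (Mmp13), a setting chosen after seeing the data whose filter Mmp13 met through siNC. Setdb1 stayed past the threshold throughout. The log2 fold change of Adam10 was -0.0561 with GC and length trends removed, with and without the replicate block, and -0.105 to 0.0880 when 1 library was left out, that of Adam15 -0.0078 to 0.143 and that of Mmp28 -0.0318 to 0.141, and these genes passed in none of the 14. The cause of these changes was not tested.

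Of all genes, 1945 passed (883 higher, 1062 lower), against 890 (460, 430) with no filter and 1015 (480, 535) with the replicate block, and 1396 were higher with trends removed. Leaving out 1 library gave 683 to 2176 (355 to 1101 higher, 326 to 1075 lower). The partner genes that rose, 8, became 4 with no filter, 4 with the replicate block and 1 to 10 when 1 library was left out, and the 3 that fell became 5 with the block and trends removed.

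The replicate numbers were not taken to pair the samples: deviations of same-numbered samples correlated at -0.157, 0.167 and -0.172, and siSetdb1 replicate 3 correlated best with siNC replicate 1 (0.283). The 32 genes with at most 10 reads in every library were too shallow for a comparison between groups.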
